A study of Mus musculus with 5 samples.

Results

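Transcription factor genes that set or maintain the identity of myeloid cells were followed in activated macrophages given semaphorin 3G (Sema3G) or PBS. They were chosen by name, as Spi1, Cebpa, Cebpb, Cebpd, Maf, Runx1, Mef2a, Mef2c and Bhlhe40, and all 9 had a row among the 24419 gene rows of the deposited table. Bone marrow cells of C57BL/6 mice were grown with M-CSF at 50 ng/ml for 5 days, and the macrophages that formed (BMMs) were activated with 100 ng/ml LPS in every sample. They then received PBS (2 libraries) or Sema3G at 100 ng/ml (3 libraries) for 18 h, and RNA 3′ ends were sequenced. The Sema3G was a recombinant protein with an Fc tag made in a human cell line, and PBS, not another Fc protein, was the control. The labels give neither the age of the mice nor whether the libraries of a group came from separate cultures, so the p-values measure only the spread between these libraries.

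Spi1 encodes PU.1, an ETS factor that opens macrophage enhancers and is needed to make myeloid cells. Runx1 encodes a factor that acts upstream of Spi1 in blood stem and progenitor cells, and Cebpa one that commits progenitors to the granulocyte and monocyte fate. Its relatives Cebpb and Cebpd are known as factors that LPS and inflammatory cytokines induce in macrophages, and all C/EBP proteins pair through a leucine zipper. Maf encodes a basic leucine zipper factor of mature macrophages that restrains their self-renewal. Mef2a and Mef2c encode MADS box factors found in macrophages and microglia as well as in muscle and neurons. Bhlhe40 encodes a basic helix-loop-helix repressor that allows resident macrophages to proliferate.

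RefSeq promoters, running from 250 bases before to 50 bases after a start site, were available for 5 of the 9 genes, with 8 promoters in all. The windows of Runx1 and Mef2a, the 2 genes whose levels were furthest above PBS, are shown because each holds the pattern that its own protein family recognises, and that of Cebpb, an abundant gene whose level was below PBS, is shown beside them. Capitals mark matches to CTA and TAG with any 4 bases between them (MEF2), TGTGGT (RUNX), GAGGAAGT (PU.1), TTGCNNAA (C/EBP) or CACGTG (E-box, the kind of site that Bhlhe40 binds), searched on both strands, or to TATAAA on the strand shown. Each sequence is written 5′ to 3′ on the strand of its gene in GRCm38.p6, at chr16:92826025-92826324 (minus strand, the upstream one of 2 Runx1 starts), chr7:67372809-67373108 (minus strand) and chr2:167688665-167688964 (plus strand).
Runx1: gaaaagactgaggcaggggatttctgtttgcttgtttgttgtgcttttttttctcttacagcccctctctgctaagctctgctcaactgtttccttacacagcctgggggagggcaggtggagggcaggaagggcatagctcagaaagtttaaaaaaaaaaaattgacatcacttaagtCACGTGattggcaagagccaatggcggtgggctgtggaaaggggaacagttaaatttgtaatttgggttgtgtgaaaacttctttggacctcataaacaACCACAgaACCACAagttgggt
Mef2a: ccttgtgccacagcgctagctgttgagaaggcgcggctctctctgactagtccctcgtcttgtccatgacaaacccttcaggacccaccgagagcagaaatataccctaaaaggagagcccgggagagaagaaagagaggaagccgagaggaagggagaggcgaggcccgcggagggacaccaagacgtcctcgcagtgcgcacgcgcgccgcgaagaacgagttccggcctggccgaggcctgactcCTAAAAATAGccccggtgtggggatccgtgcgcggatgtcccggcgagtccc
Cebpb: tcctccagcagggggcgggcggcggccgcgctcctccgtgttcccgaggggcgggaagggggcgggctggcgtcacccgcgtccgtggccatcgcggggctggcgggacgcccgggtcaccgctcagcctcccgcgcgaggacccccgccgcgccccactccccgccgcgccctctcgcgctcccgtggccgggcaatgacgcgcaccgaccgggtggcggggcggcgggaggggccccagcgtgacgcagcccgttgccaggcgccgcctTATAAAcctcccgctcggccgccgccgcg
In the Runx1 window the RUNX pattern occurs in reverse complement, as ACCACA, at bases 279 to 284 and 287 to 292, and the E-box lies at bases 180 to 185. The MEF2 match of Mef2a covers bases 249 to 258 and so spans the start site, which follows base 250. Of the 32851 promoters of this length, 16.8% held the RUNX pattern, 3.69% the MEF2 pattern, 7.15% the E-box, 10.8% the C/EBP pattern, 3.20% the PU.1 pattern and 8.32% TATAAA on the strand of the gene. TATAAA lies at bases 272 to 277 of the Cebpb window, after the start site, and at bases 221 to 226 of that of Cebpa, which is not shown. None of the 8 promoters held the C/EBP or the PU.1 pattern, and the other Runx1 promoter and the 3 of Mef2c held none of the patterns searched. These matches describe the letters only, and counts of RNA 3′ ends do not tell which start site was used.

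The deposited values are CPM, the number of unique molecular identifiers (UMIs, 1 per captured RNA molecule) of a gene scaled to the total of its library. Library totals ran from 1798469 to 2215855 UMIs, and a count of 3 UMIs corresponded to 1.35 to 1.67 CPM. Because the method takes 1 tag per RNA end, CPM values of different genes can be set side by side without dividing by length. Defining markers of macrophages were abundant, with 8 of 9 above 3 UMIs in every library and summed levels of 10524 to 13505 CPM with PBS and 9571 to 10265 CPM with Sema3G. The exception was Mertk, at 2 and 0 UMIs with PBS and 5, 4 and 5 UMIs with Sema3G. Markers of granulocyte and monocyte progenitors, the cells in which several of these factors act first, summed to at most 1.38 CPM in any library, and Elane and Ctsg were at 0 throughout. Those of dendritic cells, mast cells and basophils, and lymphoid cells summed to at most 0.556, 0.461 and 2.78 CPM, those of stromal cells to 19.9 to 47.3 CPM. Neutrophil markers summed to 116 to 169 CPM with PBS and 103 to 133 CPM with Sema3G, with Ngp, Retnlg and Cxcr2 at 0, and S100a8 alone made up 113 to 165 and 102 to 130 CPM of these sums. The precursor of ribosomal RNA, Rn45s, made up 1.01% and 3.19% of all UMIs with PBS but 6.31% to 7.88% with Sema3G, and the UMIs on listed genes took 75.6% to 77.6% and 65.9% to 71.3%. Both shares enter every CPM value.

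All 9 genes were detected in every library, from the 38.4th to the 98.7th percentile of level. Spi1, at 509 CPM on average over the 5 libraries, and Cebpb, at 462 CPM, stood at the 98.7th and 98.5th percentile of the 10088 tested genes, those that averaged 1 CPM or more. Spi1 exceeded Cebpb in 4 of 5 libraries, so the order of this pair was not settled. Maf (201 CPM) came below both in 5 of 5 libraries, and Mef2a (119 CPM) came below Maf in 5 of 5. Runx1 (83.2 CPM), Cebpd (73.4 CPM), Mef2c (51.5 CPM) and Cebpa (44.3 CPM) formed a middle range in which neighbours changed places. Runx1 was above Cebpd in the 3 Sema3G libraries and below it in both PBS libraries, and Mef2c was above Cebpa in 4 of 5 libraries. Bhlhe40, at 10.7 CPM and 16 to 31 UMIs per library, was the lowest in 5 of 5.

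**Figure D1:**
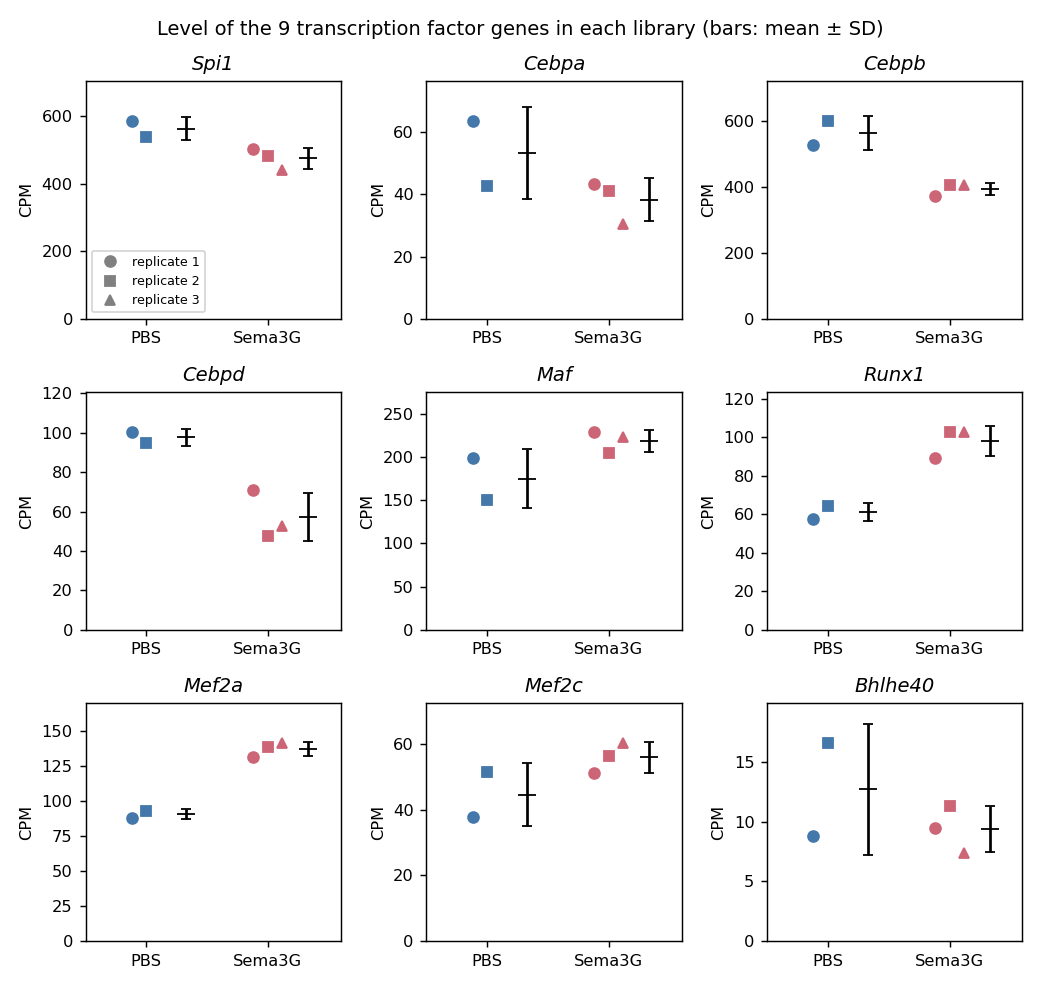
Level of each of the 9 genes in CPM (vertical axes, from 0) in the 2 PBS libraries (blue) and 3 Sema3G libraries (red), with the marker shape giving the replicate number and the black bars the mean ± SD of each group. The groups do not overlap for Spi1, Cebpb and Cebpd, which are lower with Sema3G, or for Maf, Runx1 and Mef2a, which are higher.

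The comparison asked whether 18 h with Sema3G changed the RNA level of these factors in macrophages already activated by LPS. Runx1 and Mef2a were about 1.61-fold and 1.52-fold higher in mean CPM with Sema3G, Cebpd and Cebpb were 0.586 and 0.699 times the PBS mean, and Spi1 itself stayed close to the typical gene. None of the 9 passed an adjusted p of 0.05 in limma on log2(CPM + 1), where 160 genes (1.59% of those tested) were higher and 22 (0.218%) were lower. At an unadjusted p below 0.05, 2 of the 9 were higher (Runx1 and Mef2a) and 2 lower (Cebpb and Cebpd), against 6.83% and 14.2% of all genes tested. With UMI counts recovered from the CPM values, edgeR's quasi-likelihood test called Runx1 and Mef2a higher and none of the 9 lower. This test scales libraries by trimmed means (TMM) and called 4.63% of genes higher and 0.0366% lower. DESeq2 called the same 2 genes, against 2.76% of genes called higher and 0.012% lower. All 3 Sema3G libraries lay above both PBS libraries for 3 of the 9 genes and below them for 3, where 11.9% and 26.5% of all genes tested did so. The split depends on scaling: after TMM scaling of the CPM values limma called 322 genes higher (3.19%) and 3 lower (0.0297%), Runx1 and Mef2a among the first. With library totals taken over listed genes without Rn45s it called 4.92% higher, Maf, Runx1 and Mef2a among them, and 0.0198% lower. Runx1 and Mef2a were also called by edgeR's quasi-likelihood test with no filter (4.47% higher, 0.274% lower). Leaving out Sema3G replicate 1 gave calls for Runx1, Mef2a and, in the lower direction, Cebpd (2.68% higher, 4.36% lower). A block for the replicate number gave calls for Runx1 and Mef2a and, in the lower direction, Cebpb and Cebpd (2.95% higher, 2.73% lower). The median log2 fold change of all tested genes was -0.22 in the deposited CPM and -0.038 after TMM scaling, so each change below is also given relative to that median. The direction of change also split by length, which was seen after the values were known. The 4 genes above 0 had 8241 to 15715 bp of merged exons, and the 5 below 0 had 1504 to 4705 bp. Whether length played a part was not tested.

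Spi1 was read at 586 and 538 CPM with PBS and at 502, 480.2 and 441 CPM with Sema3G. Every Sema3G library lay below both PBS libraries, but the gap was narrow. The means were 562 ± 34.1 (SD, n = 2) and 474 ± 30.6 CPM (SD, n = 3). Its log2 fold change was -0.25 (95% interval -0.64 to 0.15, limma adjusted p = 0.449), a difference of -0.020 to the median gene, and it was 0.045 with totals over listed genes without Rn45s. Spi1 (ENSMUSG00000002111.8) occupies the plus strand of chromosome 2, 91082390 to 91115756 in the GENCODE M21 annotation of GRCm38, overlaps no other gene, and rested on 902 to 1067 UMIs per library.

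Runx1 had 57.7 and 64.2 CPM with PBS and 89.0, 102 and 103 CPM with Sema3G. The lowest Sema3G library stood well above the higher PBS library, and the groups did not overlap. The means were 61.0 ± 4.63 (SD, n = 2) and 98.1 ± 7.89 CPM (SD, n = 3). The log2 fold change was 0.68 (standard error 0.19, 95% interval 0.27 to 1.08, adjusted p = 0.0805 from limma), 0.90 above the median of all genes. On the recovered counts it was 0.93 (adjusted p = 0.0157 from edgeR's quasi-likelihood test), with 105 and 120 UMIs with PBS and 160 to 227 with Sema3G. The adjusted p from limma was 0.0336 when Sema3G replicate 1 was left out, 0.361 when replicate 2 was and 0.325 when replicate 3 was. Sema3G replicates 2 and 3 were the most alike pair of libraries. Runx1 (ENSMUSG00000022952.17) occupies chromosome 16 from 92601466 to 92826149 on the minus strand.

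Cebpa had 63.7 and 42.8 CPM with PBS and 43.4, 41.1 and 30.4 CPM with Sema3G. PBS replicate 1 stood above the rest and Sema3G replicate 3 below them, and PBS replicate 2 fell within the Sema3G range. The 2 PBS libraries were 1.49-fold apart (95% exact binomial interval 1.11 to 2.0, which covers error of counting alone). The log2 fold change was -0.46 (95% interval -0.96 to 0.048, limma adjusted p = 0.282), or -0.23 relative to the median of all genes, but -0.17 without PBS replicate 1 and -0.74 without PBS replicate 2.

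Cebpb, the most abundant C/EBP gene, had 527 and 600.1 CPM with PBS and 373, 405 and 404 CPM with Sema3G. All 3 Sema3G libraries were below both PBS libraries, by a gap wider than the spread within either group. The means were 564 ± 51.4 (SD, n = 2) and 394 ± 18.0 CPM (SD, n = 3), a log2 fold change of -0.51 (standard error 0.18, 95% interval -0.90 to -0.13, adjusted p = 0.138 from limma). Relative to the median of all genes it was -0.29, and after TMM scaling it was -0.31 (adjusted p = 0.399 from limma). Cebpb (ENSMUSG00000056501.3) is a gene of 1 exon on chromosome 2, 167688915 to 167690418, plus strand, and its exon shares 312 bp with Tmem189 on the other strand, which had 66 to 120 UMIs.

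Cebpd had 101 and 94.8 CPM with PBS and 71.2, 47.8 and 52.6 CPM with Sema3G. It had the largest absolute log2 fold change of the 9 genes in the deposited CPM, and the groups did not overlap. The means were 97.6 ± 4.09 (SD, n = 2) and 57.2 ± 12.3 CPM (SD, n = 3), a log2 fold change of -0.78 (standard error 0.21, 95% interval -1.22 to -0.34, adjusted p = 0.0671 from limma), or -0.56 relative to the median of all genes. Sema3G replicate 1 was 1.49-fold above replicate 2 (95% exact binomial interval 1.14 to 1.94), and without it the log2 fold change was -0.95 with an adjusted p of 0.0176 from limma. On the recovered counts the value was -0.54 (adjusted p = 0.128 from edgeR's quasi-likelihood test). Cebpd (ENSMUSG00000071637.5; chromosome 16, 15887286 to 15891031, plus strand) shares 562 bp of its only exon with Spidr on the other strand, which had 6 to 13 UMIs against 106 to 183 for Cebpd. The sources used here do not give whether strand was used in counting.

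Among genes averaging 10 CPM or more, the 3 whose levels over the 5 libraries were most like those of Cebpd were Cgrrf1, Cs and Smad5, of 6380 candidates. Their log2 levels, centred on each gene's own mean, differed from those of Cebpd by a root mean square of 0.038, 0.040 and 0.048.

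Mef2a had 87.9 and 93.1 CPM with PBS and 132, 139 and 142 CPM with Sema3G. Both groups were tight, and the gap between them was several times the spread within them. The means were 90.5 ± 3.71 (SD, n = 2) and 137 ± 4.99 CPM (SD, n = 3), a log2 fold change of 0.60 (standard error 0.18, 95% interval 0.21 to 0.98, adjusted p = 0.0954 from limma), 0.82 above the median of all genes. The recovered counts, 160 and 174 UMIs with PBS and 237 to 307 with Sema3G, gave 0.84 (adjusted p = 0.0168 from edgeR's quasi-likelihood test). Leaving out Sema3G replicate 1 gave an adjusted p of 0.0451 from limma, leaving out replicate 2 gave 0.378 and leaving out replicate 3 gave 0.367. Mef2a (ENSMUSG00000030557.17) runs along chromosome 7 between 67231163 and 67372858 (minus strand), and its last exon shares 302 bp with Lysmd4 on the other strand, which had 4 to 13 UMIs.

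Mef2c had 37.9 and 51.4 CPM with PBS and 51.2, 56.4 and 60.4 CPM with Sema3G. The lowest Sema3G library was just under the higher PBS library, so the groups overlapped. The log2 fold change was 0.33 (95% interval -0.12 to 0.78, adjusted p = 0.377 from limma), 0.56 above the median of all genes, and it ranged from 0.12 without PBS replicate 1 to 0.55 without PBS replicate 2.

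Maf had 199 and 150.4 CPM with PBS and 229, 204 and 223 CPM with Sema3G. The groups did not overlap, but the gap was smaller than the distance between the 2 PBS libraries, which differed by 1.32-fold (95% exact binomial interval 1.13 to 1.55). The log2 fold change was 0.33 (95% interval -0.060 to 0.73, limma adjusted p = 0.312), or 0.56 above the median of all genes. With totals over listed genes without Rn45s it was 0.62 (limma adjusted p = 0.0421), and leaving out PBS replicate 2 gave 0.13 and PBS replicate 1 gave 0.53.

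Bhlhe40 had 8.79 and 16.6 CPM with PBS and 9.45, 11.3 and 7.38 CPM with Sema3G. The groups overlapped, with PBS replicate 2 above the rest. Its log2 fold change was -0.36 with a 95% interval of -1.10 to 0.39 (adjusted p = 0.570 from limma), which is -0.13 from the median gene. The PBS libraries were 1.89-fold apart. The value was -0.78 without PBS replicate 1 and 0.065 without PBS replicate 2.

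**Figure D2:**
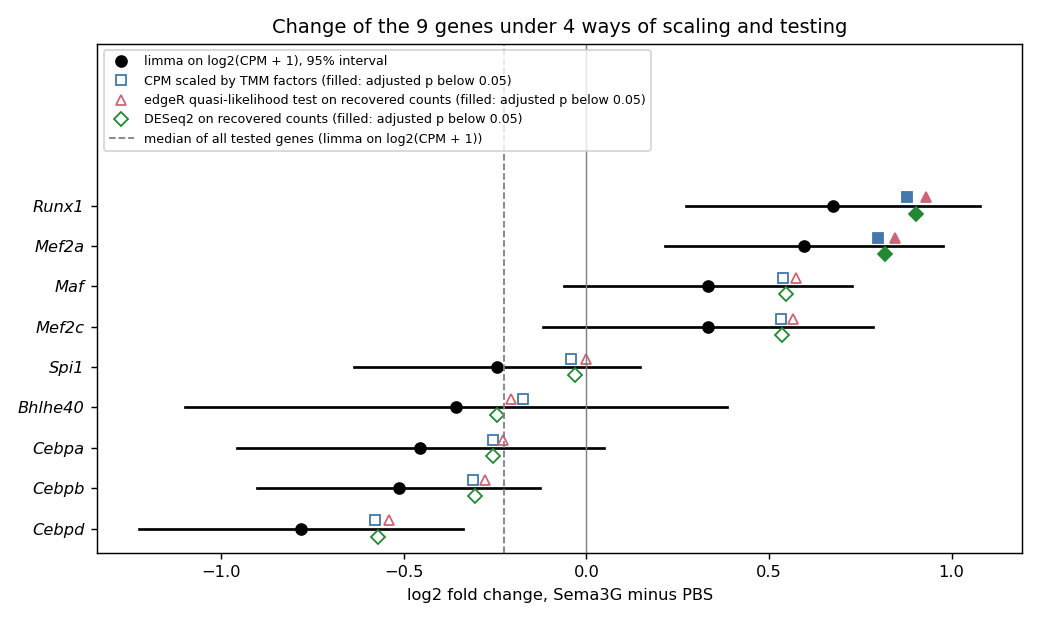
Log2 fold change of each gene (horizontal axis, Sema3G minus PBS) from limma on log2(CPM + 1), with its 95% interval in black, and from TMM-scaled CPM with limma, edgeR's quasi-likelihood test and DESeq2, where filled symbols have an adjusted p below 0.05. The dashed line is the median of all tested genes at -0.22, and filled symbols occur for Runx1 and Mef2a.

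In these bulk samples fewer cells of a type and less RNA per cell cannot be told apart. Ratios of 2 genes within 1 library do not depend on how libraries are scaled, so each gene was set against Spi1. Runx1 amounted to 0.0984 and 0.119 of the Spi1 UMIs with PBS and to 0.177, 0.213 and 0.233 with Sema3G. Mef2a amounted to 0.150 and 0.173 of Spi1 with PBS and to 0.263, 0.289 and 0.321 with Sema3G. Both ratios were higher in every Sema3G library, by 0.93 and 0.85 on the log2 scale, and with 1 library left out they stayed between 0.79 and 1.07 and between 0.74 and 0.95. The ratios of Mef2c and Maf to Spi1 were higher by 0.59 and 0.58, also without overlap, but that of Mef2c was 0.30 without PBS replicate 1 and 0.87 without PBS replicate 2. Cebpd was the 1 gene whose ratio to Spi1 was lower in all Sema3G libraries, at 0.172 and 0.176 with PBS and 0.142, 0.0996 and 0.119 with Sema3G. The log2 difference was -0.55. For Cebpa, Cebpb and Bhlhe40 the ratios overlapped, with log2 differences of -0.22, -0.27 and -0.14. Without PBS replicate 1 these were 0.0054, -0.42 and -0.66, and without PBS replicate 2 they were -0.44, -0.11 and 0.38. So 4 of the 8 ratios were higher and 1 lower without overlap, where 19.3% and 12.7% of all other tested genes were against Spi1, which was itself lower in all 3 Sema3G libraries. In an exact two-sided permutation test, which doubles the one-sided p, the 5 ratios without overlap each gave p = 0.2. That is the smallest value this form of the test can give for 2 libraries against 3. The Rn45s share and the share of listed UMIs enter both genes of a ratio alike. Totals over listed genes without Rn45s leave both out of the scaling of single genes. With them the log2 fold change was 0.045 for Spi1, -0.22 for Cebpb, -0.50 for Cebpd and 0.97 for Runx1, and the median of all tested genes was 0.042. Why the 2 shares differed between the groups was not tested.

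**Figure D3:**
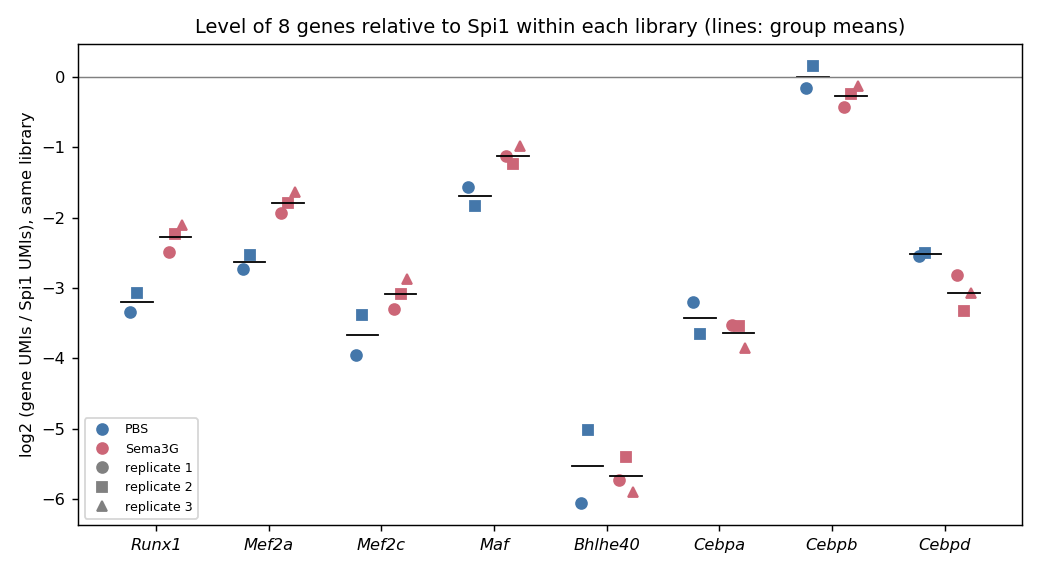
Log2 ratio of the UMIs of 8 genes to those of Spi1 in the same library (vertical axis), for PBS (blue) and Sema3G (red) libraries, with the shape giving the replicate and the lines the group means. Runx1, Mef2a, Mef2c and Maf lie higher in all 3 Sema3G libraries and Cebpd lower, while Cebpa, Cebpb and Bhlhe40 overlap.

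Ratios were also taken within families. Mef2a exceeded Mef2c by 2.32-fold and 1.81-fold with PBS and by 2.34-fold to 2.58-fold with Sema3G, a log2 difference of 0.26 that was 0.083 without PBS replicate 2. The ratio of Cebpb to Cebpa overlapped between the groups, at 8.28 and 14 with PBS and 8.60 to 13.3 with Sema3G, and so did that of Cebpd to Cebpb, at 0.191 and 0.158 with PBS and 0.118 to 0.191 with Sema3G. In the exact two-sided permutation test these 3 ratios gave p = 0.2 for Mef2a over Mef2c, p = 1.0 for Cebpb over Cebpa and p = 0.6 for Cebpd over Cebpb. Among the UMIs of the 5 C/EBP genes, Cebpb made up 72.3% and 77.7% with PBS and 69.8% to 75.8% with Sema3G. Cebpd made up 13.8% and 12.3% with PBS, and 13.3%, 8.81% and 9.86% with Sema3G, so that Sema3G replicate 1 stood with the PBS libraries. Cebpa made up 5.55% to 8.73% with PBS and 5.71% to 8.11% with Sema3G. Cebpg, a short family member that pairs with the others, made up 5.12% (95% exact binomial interval 4.0 to 6.45) and 4.44% (3.43 to 5.63) with PBS, and 8.63% (6.93 to 10.6), 8.89% (7.35 to 10.6) and 8.39% (6.86 to 10.1) with Sema3G. Its share was higher in all 3 Sema3G libraries, while Cebpb and Cebpd, which make up most of the sum, were lower in CPM. The level of Cebpg itself was 35.8 ± 2.19 (SD, n = 2) and 46.4 ± 1.80 CPM (SD, n = 3), with a limma adjusted p of 0.325, and it is named after its values were seen. Cebpe, which marks late granulocytes, had at most 3 UMIs in a library.

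**Figure D4:**
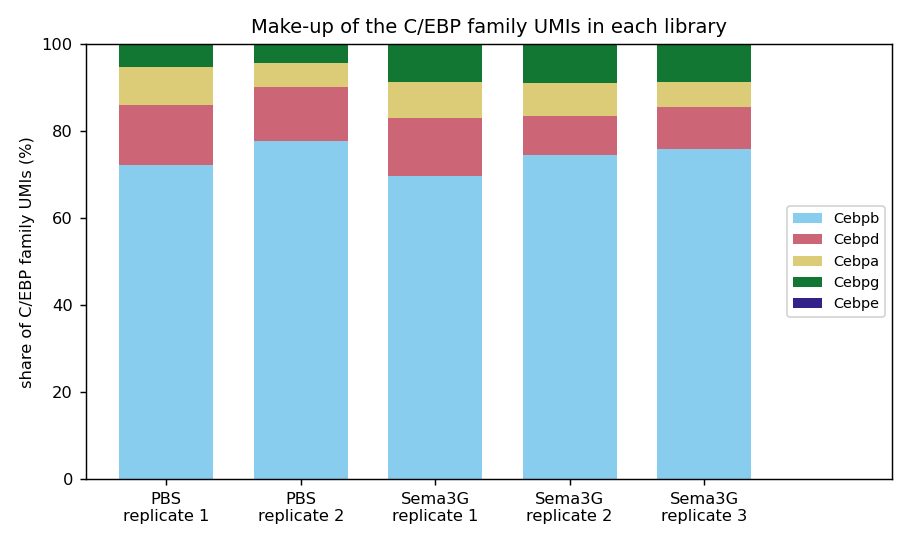
Share of the UMIs of the 5 C/EBP genes (vertical axis, percent of their sum) taken by each gene in each of the 5 libraries. Cebpb takes 69.8% to 77.7%, and the Cebpg share is 4.44% to 5.12% in the PBS libraries and 8.39% to 8.89% in the Sema3G libraries.

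Genes around these factors were described from 3 lists, and none of them had a gene past an adjusted p of 0.05 in limma with all 5 libraries on log2(CPM + 1) of the deposited values without a replicate block. Of 20 family relatives 17 were abundant enough to test, 11 with a log2 fold change above 0 and 6 below, with a median of 0.18 against -0.22 for all genes. No relative passed an unadjusted p of 0.05, and none passed an adjusted p of 0.05 in any of the 16 alternatives. Among abundant relatives, the ETS gene Elf1 averaged 159 ± 38.9 (SD, n = 2) and 179 ± 29.5 CPM (SD, n = 3), with overlap. Mafg, which encodes a small MAF partner protein, had 129 ± 5.69 and 154 ± 24.9 CPM and overlapped too. Ets2 had 99.7 ± 8.14 and 85.7 ± 4.17 CPM and was lower in all Sema3G libraries, as were 26.5% of all genes tested.

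Of 23 partners and regulators 16 were tested, with a median of -0.15, and an unadjusted p below 0.05 was reached by 1 in the higher and 2 in the lower direction, against 6.83% and 14.2% of all tested genes. Zeb2, a zinc finger factor that keeps macrophages true to their tissue, had 279 and 334 CPM with PBS and 414, 397 and 417 CPM with Sema3G, all 3 above both. That was so for 11.9% of all genes tested. DESeq2 called Zeb2 higher, and edgeR's quasi-likelihood test called none of this list with its filter and Jun and Zeb2 higher without it. In limma, Zeb2 was called higher with totals over listed genes without Rn45s, and Mapk14 lower with the replicate block and when Sema3G replicate 1 was left out. Irf8, a partner of PU.1 on composite DNA sites, had 320.3 ± 52.0 (SD, n = 2) and 289 ± 15.5 CPM (SD, n = 3), with overlap. Jun, which pairs with PU.1 as a coactivator, and Id2, an inhibitor of helix-loop-helix factors, overlapped as well, at 103 ± 15.7 and 136 ± 31.3 CPM for Jun and 123 ± 11.1 and 112 ± 29.0 CPM for Id2.

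Of 26 myeloid genes that PU.1, C/EBP or RUNX factors are known to drive or that mark mature macrophages, 25 were tested, 22 of them with a log2 fold change below 0 and 3 above, and the median was -0.37. Of all tested genes 67.5% had a log2 fold change below 0. At an unadjusted p below 0.05, 9 were lower and 0 higher, where 14.2% and 6.83% of all tested genes were. DESeq2 called none of these genes, and edgeR's quasi-likelihood test called none with its filter and C1qa lower without it. In limma, C1qa and Csf2ra were called lower with the replicate block, C1qa, Adgre1 and C1qb when Sema3G replicate 1 was left out, and C1qa, Csf2ra, Cd68 and Marco when PBS replicate 2 was, a fit that called 0.397% of all genes lower and 1.75% higher. C1qa, a chain of the complement protein C1q, had 1302 and 541 CPM with PBS and 596, 305 and 348 CPM with Sema3G, with overlap. The genes called under these alternatives are named after their values were seen. Csf1r, the M-CSF receptor and a target of PU.1 and RUNX1, had 4976 and 3909 CPM with PBS and 3478, 3563 and 3451 CPM with Sema3G, lower in all 3. So were 26.5% of all genes tested, and its log2 fold change was -0.33 (limma adjusted p = 0.483), or -0.11 relative to the median. Ctss, a lysosomal protease, had 4738 and 2681 CPM with PBS, and 4198 to 4943 CPM with Sema3G, with overlap. Cybb, the catalytic subunit of the phagocyte oxidase, had 4070 ± 584 (SD, n = 2) and 3593 ± 164 CPM (SD, n = 3), and Lyz2, a lysozyme, had 3363 ± 1020 and 2977 ± 390.3 CPM, both with overlap.

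**Figure D5:**
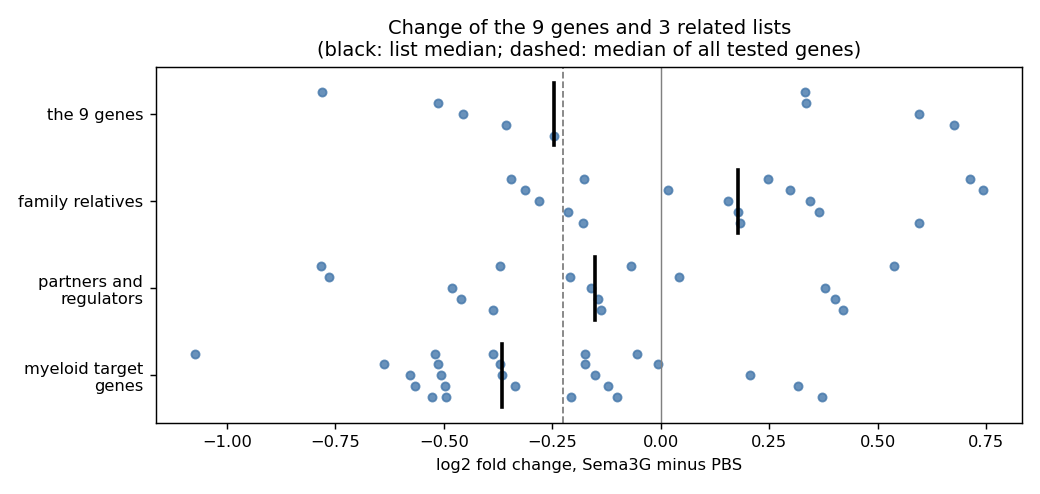
Log2 fold change from limma on log2(CPM + 1) (horizontal axis, Sema3G minus PBS) of the 9 genes and of the tested genes of 3 related lists, 1 point per gene, spread vertically only for legibility. Black lines are list medians, at -0.25, 0.18, -0.15 and -0.37 from top to bottom, and the dashed line is the median of all tested genes at -0.22.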

How the data were processed

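RNA from 5 libraries, 2 with PBS and 3 with Sema3G, was analysed. The authors mapped the reads of RNA 3′ ends to mm10, counted UMIs per gene in Strand NGS and normalized them with EdgeR (edgeR 3.12 in the submitters' processing notes). Neither the annotation nor a filter is named in the sources used here. CPM values were deposited by the authors, with p-values, q-values and a ranking from their own comparison, which were not used. All 5 columns of sample values were used, each named for its group and replicate.

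Dividing each CPM value by the step of its library gave the UMI count, and 100% of nonzero values came within 0.01 of a whole number. The main test was limma-trend (limma 3.58.1 in R 4.3.3) on log2(CPM + 1), over the 10088 genes that averaged 1 CPM or more, and p-values were adjusted over all of these by Benjamini-Hochberg. Fold changes on this scale are understated for low genes. The UMI counts so recovered went into edgeR (4.0.16) and DESeq2 (1.42.0) as alternatives. The fits were tested on simulated data. Alternatives changed the pseudocount, filter, scaling, trend and replicate block, or left out 1 library.

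Libraries held 1798469 to 2215855 UMIs, and intervals cover counting error only. The closest pair, Sema3G replicates 2 and 3, gave 1.77 for chi-square over its degrees of freedom, against 6.57 to 29.6 for the other 9 pairs, and was kept as 2 libraries. The calls of Runx1 and Mef2a by edgeR and DESeq2 count both libraries, and these tests were not refitted with either left out. Coordinates come from GENCODE M21 (GRCm38, the mm10 build), promoters from RefSeq (GRCm38.p6). The 9 genes, the lists, the tests and the within-library ratios were chosen with earlier results of these data known. Named are the 9 genes, the 4 most abundant genes of each related list (1 of them is not reported here) with any past an adjusted p of 0.05, the 3 genes most like the one of the 9 with the largest fold change in the deposited CPM (Cebpd; with TMM scaling, edgeR or DESeq2 it was Runx1), and Rn45s. Genes with UMIs in the table whose exons overlap those of the 9 on the other strand were also named.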

Additional observations from a re-analysis of the deposited data

How the results depend on the processing

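The 2 control libraries, the 16 to 31 UMIs of Bhlhe40 and the shift of the median gene limit these comparisons. Across the 16 alternatives run, 7 of the 9 genes kept the sign of their fold change. The exceptions were Spi1, at 0.045 with totals over listed genes without Rn45s, and Bhlhe40, at 0.065 without PBS replicate 2 and -0.78 without PBS replicate 1. None of the 9 was called with either other pseudocount, either other filter or limma without a trend. In place of 0, 2 were called after TMM scaling, with edgeR's quasi-likelihood test, with that test unfiltered and with DESeq2 (Runx1 and Mef2a each time), and 3 with totals over listed genes without Rn45s (Maf too). With 1 library left out the number ranged from 0 to 3, the 3 being Runx1, Mef2a and Cebpd without Sema3G replicate 1. The number of all genes called, 182, became 108 with no filter, 325 after TMM scaling, 498 with totals over listed genes without Rn45s, 383 with edgeR's quasi-likelihood test, 607 with that test unfiltered and 10 with limma without a trend. Leaving out Sema3G replicate 1 gave 710, Sema3G replicate 2 gave 27 and Sema3G replicate 3 gave 32. The cause was not tested. A lone PBS library was taken to vary as the Sema3G libraries do.

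Groups share replicate numbers in the labels, but nothing says that a number marks a shared culture, and with only 2 shared numbers the pairing could not be settled: deviations from the group means correlated at 0.17 for the libraries numbered 1 and 0.11 for those numbered 2, over genes, and PBS replicate 2 at 0.097 with Sema3G replicate 3. With the replicate block, which sets Sema3G replicate 3 apart and leaves 1 residual degree of freedom, 573 genes and 4 of the 9 were called (Runx1 and Mef2a higher, Cebpb and Cebpd lower).

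Of 55 within-library ratio differences recomputed without 1 library, an alternative chosen after seeing the data, 4 changed sign, none of them for Runx1, Mef2a, Mef2c, Maf or Cebpd over Spi1.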
